A study of Mus musculus with 6 samples.

Results

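The potassium channel genes on a mouse Affymetrix array were compared between sorted retinal ganglion cells of 3 groups. Members are all genes of the platform annotation whose symbol is Kcn followed by letters and a closing number, other than Kcnj8, a gene known from pericytes. There are 79 of them among the 18193 genes of the table, namely 31 voltage-gated channel genes (Kv), 14 inward rectifier genes (Kir), 12 genes of channels with 2 pore domains (K2P), 8 of the calcium-activated group, and 14 auxiliary subunits. The calcium-activated group also holds the sodium-activated relatives Kcnt1 and Kcnt2 and the related Kcnu1.

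All cells came from retinas of C57BL/6 mice at postnatal day 6, dissociated with papain and sorted by flow cytometry. Hb9 cells carried GFP and Thy1, and so did Drd4 cells, and each reporter line is known for marking 1 kind of ganglion cell that responds to motion in a preferred direction, at light onset and offset. Thy1 cells were sorted on Thy1, a surface protein of ganglion cells in general, with no GFP named in their label. Each group has 2 arrays, whose cells came from different litters. The labels state neither what drives each reporter nor how many animals went into a sort.

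Potassium channels set the resting potential of a neuron, end its action potentials and limit how fast it can fire. Kv channels open on depolarisation, and the Kv4 channels among them carry the fast transient A-type current together with KChIP and DPP proteins. K2P channels carry the leak current at rest, Kir channels of the GIRK type open on G protein signals, and BK and SK channels respond to calcium that enters during spikes. Ganglion cells are the spiking output neurons of the retina, and Kv1, Kv3 and Kv4 channels are known to shape their firing.

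Ganglion cell transcripts were present, since 10 of 11 measured ganglion cell markers lay above background on all 6 arrays. So did 7 of 10 microglial markers, and a level above background does not give the share of ganglion cells in a sort. Against Thy1 cells, 1 ganglion cell marker was higher and 0 lower in Hb9, and 3 were higher and 1 lower in Drd4. The higher ones in Drd4 included the Thy1 gene (log2 difference 0.52), and the lower one was Isl1 (-1.74). Of 5 markers of direction-selective ganglion cells, 3 were higher and 0 lower in Hb9 than in Thy1, and 2 were higher and 1 lower in Drd4 than in Thy1. The marker lists were chosen with earlier results of these data known, so their counts do not test what the sorted cells are. Background was set on each array at the brightest of its Bacillus control probe sets, at a log2 intensity between 4.95 and 5.38, and a group was taken as at background when both of its arrays lay at or below it. All values below are log2 intensities of the brightest probe set of a gene or differences of them, and levels of different genes cannot be set against each other. Errors of group means are SD with n = 2 arrays, errors of differences are standard errors from limma, and p-values are adjusted over all genes. In these sorted bulk samples, fewer cells of a type and less RNA per cell cannot be told apart.

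The largest differences of the family were between Drd4 and Thy1 cells and between the lines. In Drd4 cells, Kcna5 (Kv1.5) was at least 4.07-fold higher and Kcnd2 (Kv4.2) was 5.18-fold lower than in Thy1 cells, and Kcnip4 (KChIP4), a cytoplasmic partner of Kv4 channels, was 4.45-fold lower. For Kcnd2 and Kcnip4 the place of Hb9 cells depended on the probe set, as given below. The promoter windows of these 3 genes are shown because they carry the largest differences of the family. Each is the 250 bases before the RefSeq start in GRCm38.p6, written 5′ to 3′ on the strand of the gene, with CG dinucleotides in capitals. Kcnip4 has 2 such windows, of which the one farther upstream is given.
Kcnd2, chr6:21215096-21215345, plus strand: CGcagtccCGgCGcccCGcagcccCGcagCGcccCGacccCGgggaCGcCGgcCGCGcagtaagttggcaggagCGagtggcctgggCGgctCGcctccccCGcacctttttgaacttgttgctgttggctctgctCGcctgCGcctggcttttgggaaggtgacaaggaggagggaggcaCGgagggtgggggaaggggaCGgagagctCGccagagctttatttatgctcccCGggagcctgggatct
Kcnip4, chr5:49285660-49285909, minus strand: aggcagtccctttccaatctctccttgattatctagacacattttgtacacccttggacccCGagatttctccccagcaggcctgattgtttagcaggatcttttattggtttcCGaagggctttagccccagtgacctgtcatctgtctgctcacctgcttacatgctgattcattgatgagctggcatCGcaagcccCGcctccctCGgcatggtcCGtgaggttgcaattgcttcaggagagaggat
Kcna5, chr6:126535556-126535805, minus strand: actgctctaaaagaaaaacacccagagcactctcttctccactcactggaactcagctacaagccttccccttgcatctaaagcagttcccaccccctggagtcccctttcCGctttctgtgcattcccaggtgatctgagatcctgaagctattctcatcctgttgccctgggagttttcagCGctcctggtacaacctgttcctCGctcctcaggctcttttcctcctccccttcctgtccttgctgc
The Kcnd2 window holds 22 CG dinucleotides, against 6 in the Kcnip4 window and 3 in that of Kcna5. The median over all 32851 RefSeq windows of this length is 6. The GC box GGGCGG, searched on both strands, occurs in the Kcnd2 window and in neither of the others, and 32.7% of all windows hold it. None of the 3 holds TATAAA, which 12.4% of all windows hold. These matches describe the letters only and were not related to the expression values.

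**Figure D1:**
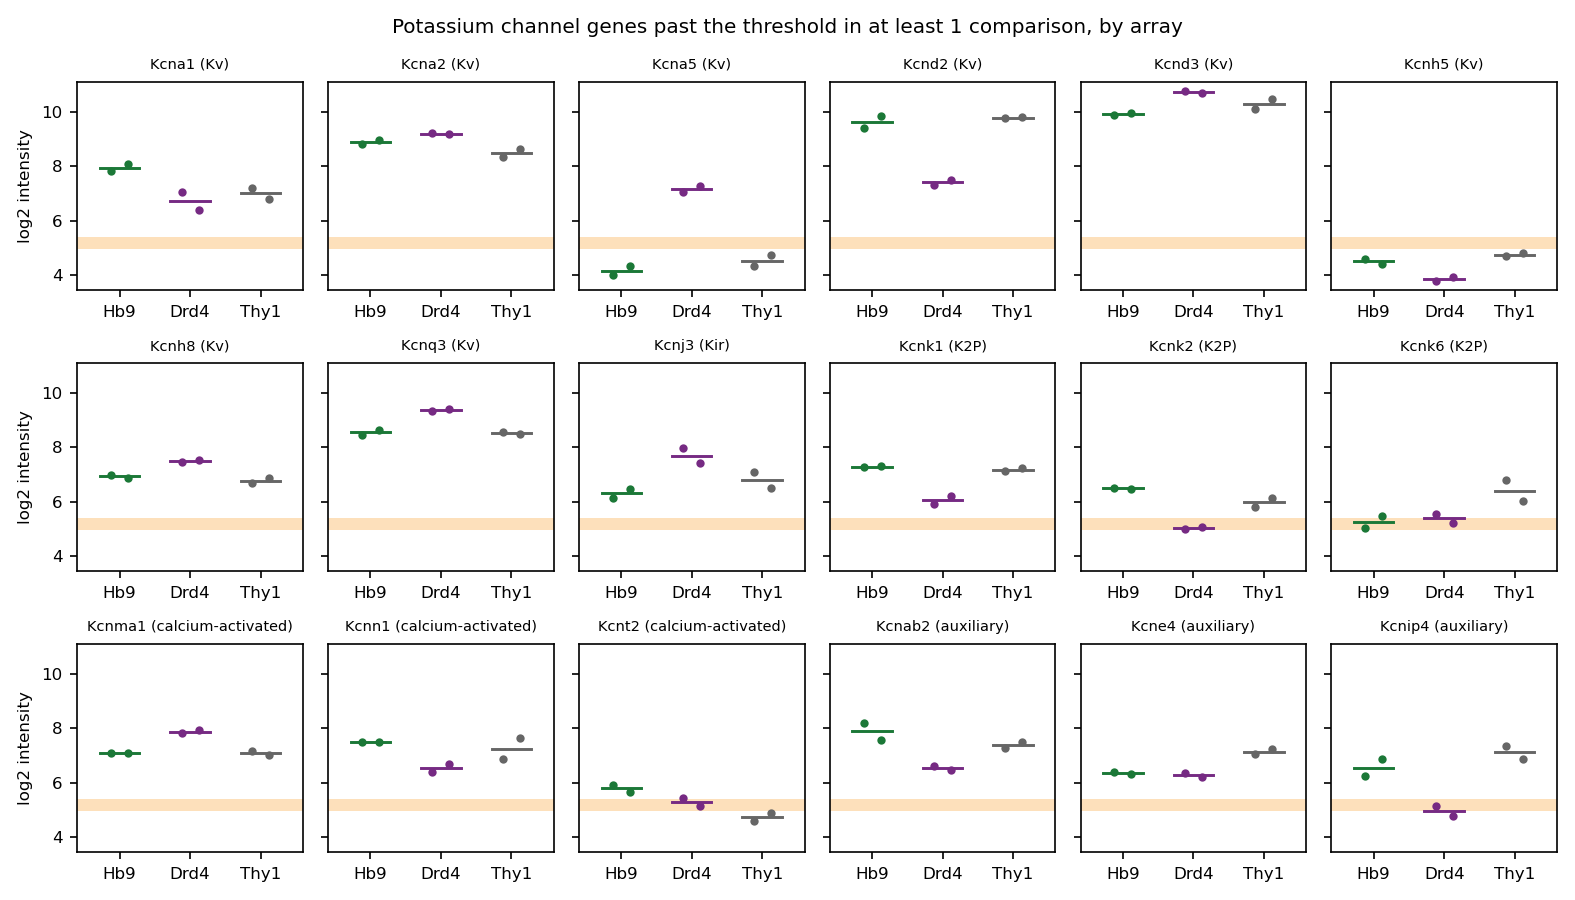
Log2 intensity (y axis) of the 18 potassium channel genes past the threshold in at least 1 comparison, in Hb9, Drd4 and Thy1 cells (x axis). Points are arrays, short lines are means of 2 arrays, and the shaded band spans the background of the 6 arrays, 4.95 to 5.38. The Kcna5 points of Drd4 lie above 7 and the other 4 lie under the band, while Kcnd2 lies near 7.4 in Drd4 and above 9.4 in the other groups.

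Of the 79 members, 18 passed the threshold of 0.05 in at least 1 of 3 comparisons, or 22.8%, beside 11.7% of all genes. Against Thy1, 2 members were higher and 2 lower in Hb9 cells, and 5 were higher and 7 lower in Drd4 cells. Between the lines, 8 were higher and 5 lower in Hb9 than in Drd4. Among all genes, the shares called were 6.71% for Hb9 against Thy1 (3.52% higher and 3.19% lower), 5.47% for Drd4 against Thy1 (1.51% and 3.96%) and 6.12% for Hb9 against Drd4 (4.06% and 2.06%). The members' shares were 2.53% higher and 2.53% lower for Hb9 against Thy1, near those of all genes, 6.33% and 8.86% for Drd4 against Thy1, and 10.1% and 6.33% for Hb9 against Drd4. The members' median log2 differences were 0.01, 0.02 and 0.03 in these comparisons, beside medians of 0.04, 0.02 and 0.04 over all genes. Hb9 and Drd4 are set against the same Thy1 arrays, so their values are given side by side and no overlap is read from them. The counts also rest on single arrays. Hb9 against Thy1 had 0 higher and 0 lower without Hb9 replicate 1, 1 and 1 without Hb9 replicate 2, 0 and 1 without Thy1 replicate 1, and 1 and 1 without Thy1 replicate 2. Drd4 against Thy1 had 3 higher without either Drd4 replicate. Hb9 against Drd4 had 1 lower without Hb9 replicate 1 and 3 lower without Hb9 replicate 2.

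By subfamily, 1 of 31 Kv genes rose (3.23%) and 0 fell in Hb9 against Thy1, beside 3.52% and 3.19% of all genes. In Drd4 against Thy1, 4 Kv genes rose (12.9%) and 2 fell (6.45%), beside 1.51% and 3.96% of all genes. Of 12 K2P genes, 3 fell in Drd4 against Thy1 (25%), beside 3.96% of all genes. Between the lines, 2 K2P genes were higher in Hb9 (16.7%), beside 4.06% of all genes. In the same comparison 3 Kv genes were higher and 3 lower in Hb9 (9.68% each). Of 14 auxiliary genes 2 were higher (14.3%) and 0 lower, beside 4.06% higher and 2.06% lower among all genes. In the calcium-activated group 1 of 8 was higher and 1 lower between the lines (12.5% each). The 14 Kir genes had 0 calls against Thy1 in either line, beside 6.71% and 5.47% of all genes. Only 5 of the Kir genes lay above background on all 6 arrays. Each subfamily holds few genes, so 1 call moves these shares by much.

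**Figure D2:**
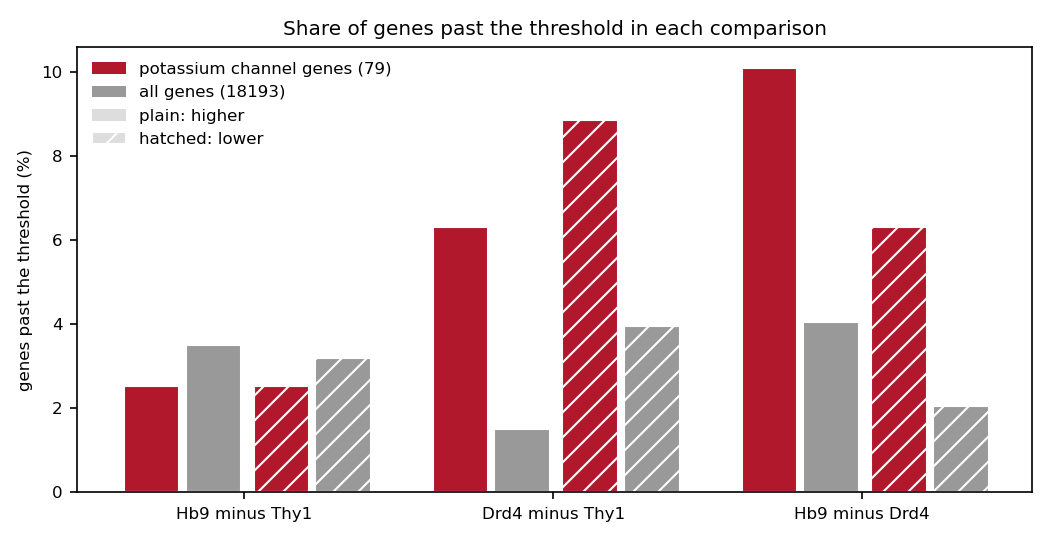
Share of genes past the threshold (y axis, percent) among 79 potassium channel genes (red) and all 18193 genes (grey), split into higher (plain) and lower (hatched), in each comparison (x axis). The members' bars reach 10.1% for genes higher in Hb9 than in Drd4 and 2.53% for either direction of Hb9 against Thy1.

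Among the Kv genes, Kcna5 had the sharpest pattern. Kcna5 encodes a delayed rectifier best known from heart and smooth muscle. It read 4.0 and 4.34 in Hb9 cells, 7.04 and 7.29 in Drd4 cells, and 4.34 and 4.73 in Thy1 cells. On the linear scale these are intensities of 15.9 and 20.2 in Hb9, 131 and 156 in Drd4, and 20.2 and 26.5 in Thy1. Only the Drd4 arrays lay above background, so the folds are bounds, of at least 4.07-fold higher in Drd4 than in Thy1 (adjusted p = 3.49e-05) and at least 3.59-fold lower in Hb9 than in Drd4 (adjusted p = 1.68e-05). Both calls held under all 14 alternatives of processing, and the gene has 1 probe set.

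Kcna1 and Kcna2 encode Kv1.1 and Kv1.2, low-threshold channels of axons. Kcna1 read 7.83 and 8.06 in Hb9 cells, 7.05 and 6.37 in Drd4 cells, and 7.21 and 6.81 in Thy1 cells. The Hb9 arrays stood above all others, and the gene rose in Hb9 by 1.23 ± 0.23 against Drd4 (adjusted p = 0.0125) and by 0.94 ± 0.23 against Thy1 (adjusted p = 0.0409). In RefSeq gene order Kcna5, Kcna1 and Kcna6 are next to each other, and Kcna6 did not pass, with -0.04 ± 0.17, -0.10 ± 0.17 and 0.05 ± 0.17 for Hb9 minus Thy1, Drd4 minus Thy1 and Hb9 minus Drd4. Kcna2 had 8.83 and 8.95 in Hb9, 9.22 and 9.17 in Drd4, and 8.34 and 8.62 in Thy1. It rose in Drd4 against Thy1 by 0.71 ± 0.16 (adjusted p = 0.0237), and its Hb9 arrays lay between those of the other groups.

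The Kcna1 and Kcna2 calls were not stable. Kcna1 against Thy1 was lost in 6 of 14 alternatives, namely without either Hb9 replicate (adjusted p = 0.121 and 0.175) or either Thy1 replicate (0.0817 and 0.138), with quantile normalisation (0.0879) and with probe sets averaged per gene (0.253), over a range of 0.0094 to 0.253. Against Drd4 it was lost without Hb9 replicate 2 (adjusted p = 0.0815) and with probe sets averaged per gene (0.158), over a range of 0.00173 to 0.158. For Kcna2, the call ended without Drd4 replicate 1 (adjusted p = 0.0996), Drd4 replicate 2 (0.082) or Thy1 replicate 1 (0.148) and with probe sets averaged per gene (0.245), over a range of 0.0196 to 0.245. Of the 3 other Kcna1 probe sets 0 passed, with Hb9 minus Drd4 between -0.09 and 0.56, and of the 3 other Kcna2 probe sets 0 passed, with Drd4 minus Thy1 between -0.21 and 0.74.

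On their brightest probe sets, the Kv4 genes Kcnd2 and Kcnd3 differed in opposite directions between the lines. Kcnd2 read 9.42 and 9.83 in Hb9 cells, 7.32 and 7.503 in Drd4 cells, and 9.77 and 9.79 in Thy1 cells. The Drd4 arrays lay about 2 log2 units under all others, with differences of 2.22 ± 0.17 for Hb9 minus Drd4 (4.64-fold, adjusted p = 5.92e-05) and -2.37 ± 0.17 for Drd4 minus Thy1 (5.18-fold lower, adjusted p = 5.16e-05). Kcnd3 encodes Kv4.3 and read 9.895 and 9.95 in Hb9, 10.76 and 10.68 in Drd4, and 10.10 and 10.45 in Thy1. It was lower in Hb9 than in Drd4, at -0.80 ± 0.14 (adjusted p = 0.0101), with no overlap, and passed against Thy1 in neither line (-0.35 ± 0.14 in Hb9 and 0.45 ± 0.14 in Drd4). The other Kv4 gene, Kcnd1, did not pass in any comparison (0.45 for Hb9 minus Drd4).

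The probe sets of Kcnd2 disagree on Hb9. The brightest gave no call for Hb9 against Thy1 (-0.16 ± 0.17, adjusted p = 0.652), whereas another, dimmer one read 5.56 and 5.86 in Hb9, 5.32 and 5.96 in Drd4, and 7.93 and 8.03 in Thy1. One of middle brightness read 7.16 and 7.70 in Hb9, 6.41 and 6.84 in Drd4, and 8.67 and 8.62 in Thy1. By the dimmer and the middle probe set Kcnd2 was lower in Hb9 than in Thy1, at -2.27 and -1.22 (adjusted p = 0.000313 and 0.00791 in a limma fit over all probe sets), and lower in Drd4, at -2.34 and -2.02 (0.000168 and 0.000353). Hb9 minus Drd4 was 0.80 (0.0468) on the middle probe set and 0.07 (0.909) on the dimmer one. With probe sets averaged the gene was lower in Hb9 than in Thy1, at -0.86 (adjusted p = 0.0152), and its adjusted p over the 14 alternatives ran from 0.0152 to 0.952. The lower level of Kcnd2 in Drd4 than in Thy1 thus held on 3 probe sets, while the size of the difference between Hb9 and Drd4 depended on the probe set. The other probe set lay at background on all arrays. For Kcnd3 the call ended without either Hb9 replicate (adjusted p = 0.0922 and 0.0574) and with probe sets averaged per gene (0.0768), over a range of 0.00475 to 0.0922, and 1 of its 3 other probe sets passed the same way (-0.66).

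**Figure D3:**
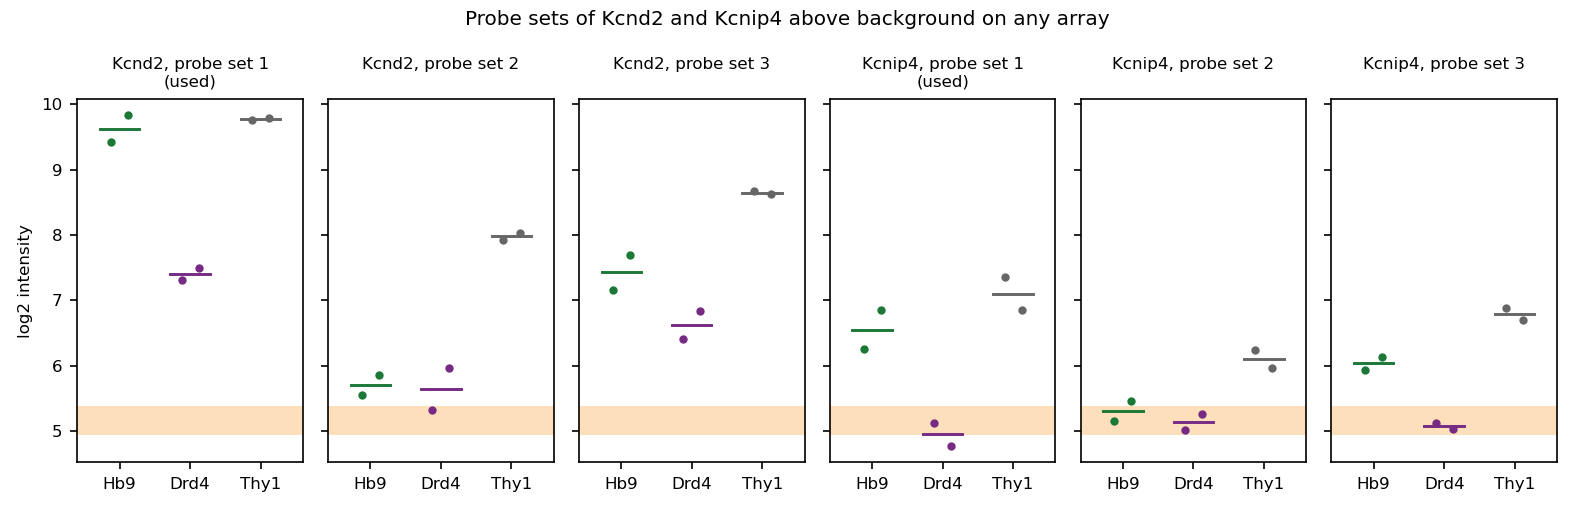
Log2 intensity (y axis) by group (x axis) for the probe sets of Kcnd2 and Kcnip4 that lay above background on any array. Points are arrays, lines are means of 2 arrays and the shaded band spans the background of the 6 arrays. All 6 probe sets are lower in Drd4 than in Thy1, and Hb9 lies near Thy1 on the first Kcnd2 probe set and near Drd4 on the second.

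Kcnip4 is the member of the auxiliary group with the largest change. It read 6.26 and 6.85 in Hb9 cells, 5.13 and 4.77 in Drd4 cells, and 7.36 and 6.85 in Thy1 cells. The Drd4 arrays lay below all others, 1 of them above background and 1 below it. Drd4 minus Thy1 was -2.15 ± 0.23 for Kcnip4 (4.45-fold lower, adjusted p = 0.000453), and Hb9 minus Drd4 was 1.60 ± 0.23 (3.03-fold, adjusted p = 0.00318). Both other probe sets were lower in Drd4 than in Thy1 (-1.71 and -0.97, adjusted p = 0.000145 and 0.00848), and both were also lower in Hb9 than in Thy1 (-0.75 and -0.80, adjusted p = 0.0158 and 0.0211), where the brightest gave -0.55 ± 0.23 (adjusted p = 0.192). Hb9 minus Drd4 was 0.95 (adjusted p = 0.0039) on one of them and 0.17 (0.66) on the other, so the size of the difference between the lines depended on the probe set. With 1 Drd4 array below background, the folds of the brightest probe set rest partly on a value that was not measured above background. The other KChIP genes, Kcnip1, Kcnip2 and Kcnip3, did not pass in any comparison on their brightest probe sets. A second Kcnip3 probe set lay above background on all 6 arrays and passed in a limma fit over all probe sets. It gave 0.65 for Drd4 minus Thy1 (adjusted p = 0.0261) and -0.53 for Hb9 minus Drd4 (0.0493), where the brightest gave 0.32 and -0.40.

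Of 3 Kv7 genes, Kcnq3 passed, and of 6 ether-a-go-go genes, Kcnh8 and Kcnh5 passed. Kcnq3 encodes a subunit of the M-current, a slow brake on repetitive firing. It read 8.46 and 8.63 in Hb9, 9.33 and 9.41 in Drd4, and 8.56 and 8.48 in Thy1, so the Drd4 arrays stood above all others. The difference was 0.85 ± 0.15 for Drd4 minus Thy1 (adjusted p = 0.00641) and -0.82 ± 0.15 for Hb9 minus Drd4 (adjusted p = 0.00925). Kcnh8, of the Elk branch, read 6.98 and 6.87 in Hb9, 7.44 and 7.52 in Drd4, and 6.67 and 6.85 in Thy1. It rose in Drd4 against Thy1 by 0.72 ± 0.15 (adjusted p = 0.0203) and missed the threshold for Hb9 minus Drd4 (-0.56 ± 0.15, adjusted p = 0.0621). Kcnh5, of the Eag branch, was called lower in Drd4 than in Thy1 (adjusted p = 0.00253) and higher in Hb9 than in Drd4 (adjusted p = 0.0163), but it lay at background in all 3 groups, with arrays at 4.59 and 4.41 in Hb9, 3.78 and 3.94 in Drd4, and 4.68 and 4.79 in Thy1, and no fold is given.

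The second Kcnq3 probe set went the same way without passing (0.39 for Drd4 minus Thy1). Kcnq3 between the lines was lost without Hb9 replicate 1 (adjusted p = 0.113, over a range of 0.00719 to 0.113). Kcnh8 was lost without Drd4 replicate 1 (adjusted p = 0.0523), Drd4 replicate 2 (0.0992) or Thy1 replicate 1 (0.136), over a range of 0.0109 to 0.136. Kcnh5 between the lines was lost without Hb9 replicate 1 (adjusted p = 0.142) or Drd4 replicate 1 (0.0821), over a range of 0.0135 to 0.142. The Kv3 genes of fast-spiking neurons, Kcnc1 and Kcnc2, passed in no comparison on their brightest probe sets. Kcnc1 averaged 8.73 ± 0.06 in Hb9, 8.57 ± 0.08 in Drd4 and 8.26 ± 0.02 in Thy1 (adjusted p = 0.0838 for Hb9 against Thy1), and Kcnc2 averaged 10.05 ± 0.22 in Hb9, 10.42 ± 0.32 in Drd4 and 10.35 ± 0.20 in Thy1. The Kcnc1 probe sets did not agree on Hb9. In a limma fit over all probe sets, another one passed for Hb9 minus Drd4 at -0.71 (adjusted p = 0.0215), where the brightest gave 0.16. For Hb9 minus Thy1 it gave -0.55 (0.0611), where the brightest gave 0.47 and the remaining ones 0.50 and -0.10. In all, 23 of 31 Kv genes were called in 0 comparisons by their brightest probe set.

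**Figure D4:**
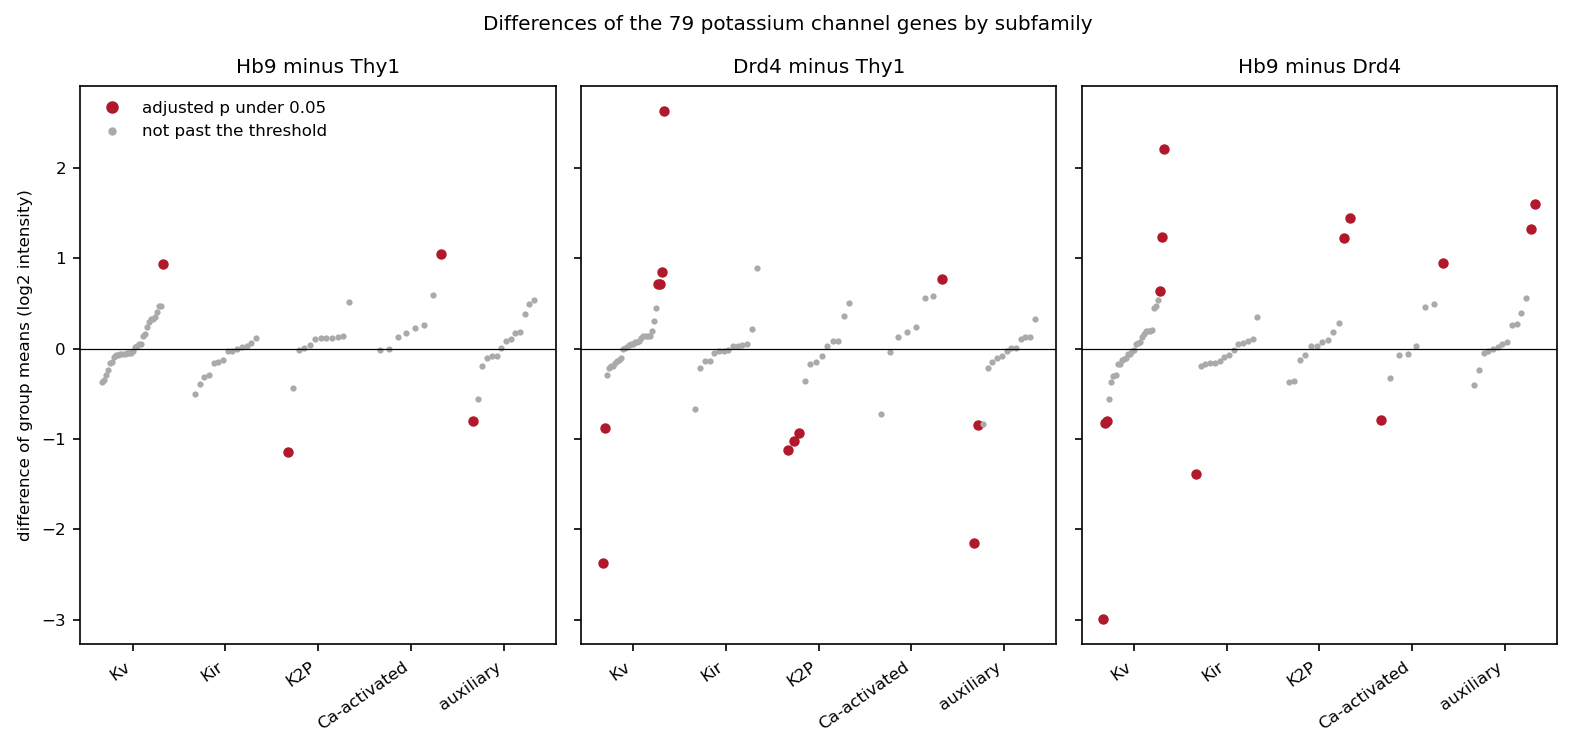
Difference of group means in log2 intensity (y axis) for each of the 79 potassium channel genes, ordered by size within its subfamily (x axis), in 3 comparisons. Each point is 1 gene, and red points have an adjusted p under 0.05. Differences run from -1.15 to 1.05 for Hb9 minus Thy1, from -2.37 to 2.63 for Drd4 minus Thy1 and from -2.99 to 2.22 for Hb9 minus Drd4.

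Of 12 K2P leak channel genes, 9 were called in 0 comparisons, and Kcnk1, Kcnk2 and Kcnk6 were lower in Drd4 than in Thy1. Kcnk2 encodes TREK-1, a leak channel that responds to stretch and lipids, and Kcnk1 encodes TWIK-1. Kcnk2 read 6.50 and 6.46 in Hb9 cells, 4.98 and 5.08 in Drd4 cells, and 5.81 and 6.12 in Thy1 cells. The groups did not overlap, with Hb9 highest and 1 of 2 Drd4 arrays below background, and the differences were 1.45 ± 0.15 for Hb9 minus Drd4 (2.74-fold, adjusted p = 0.000385) and -0.94 ± 0.15 for Drd4 minus Thy1 (adjusted p = 0.00409). Kcnk1 read 7.28 and 7.29 in Hb9, 5.90 and 6.20 in Drd4, and 7.11 and 7.25 in Thy1. Only Drd4 stood apart, with 1.23 ± 0.16 for Hb9 minus Drd4 (2.35-fold, adjusted p = 0.00154) and -1.12 ± 0.16 for Drd4 minus Thy1 (adjusted p = 0.0022). All 4 calls held under all 14 alternatives, though the dimmer second Kcnk1 probe set did not pass (0.54 for Hb9 minus Drd4). Kcnk10, the gene of the related TREK-2, averaged 7.54 in Hb9, 7.91 in Drd4 and 7.40 in Thy1, and its difference of 0.51 ± 0.15 for Drd4 minus Thy1 did not pass (adjusted p = 0.105).

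Kcnk6 (TWIK-2) and Kcne4, an auxiliary subunit known to modulate Kv channels, were lower in both lines than in Thy1. Kcnk6 read 5.04 and 5.47 in Hb9, 5.54 and 5.23 in Drd4, and 6.78 and 6.03 in Thy1, with 1 Hb9 array below background, which gives -1.15 ± 0.24 for Hb9 (adjusted p = 0.0222) and -1.02 ± 0.24 for Drd4 (adjusted p = 0.0373). Kcne4 had 6.37 and 6.30 in Hb9, 6.37 and 6.21 in Drd4, and 7.05 and 7.22 in Thy1. Its differences from Thy1 were -0.80 ± 0.15 in Hb9 (adjusted p = 0.0132) and -0.85 ± 0.15 in Drd4 (adjusted p = 0.00728). The lines did not differ in these genes beyond their error, with -0.13 ± 0.24 for Kcnk6 and 0.05 ± 0.15 for Kcne4 as Hb9 minus Drd4.

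Some lists of markers of other cells were also lower in the lines than in Thy1. All 10 microglial markers were called lower in Hb9 and in Drd4 than in Thy1, with summed intensities of 1584 and 1953 in Hb9, 2891 and 1015 in Drd4, and 11111 and 6428 in Thy1. Of 8 pericyte markers 4 were lower in Hb9 and 5 in Drd4, with summed intensities of 1894 and 1527 in Hb9, 1105 and 273 in Drd4, and 7786 and 8762 in Thy1. At background were 2 microglial markers in Hb9 and 0 in Drd4 and Thy1, and 2 pericyte markers in Hb9, 2 in Drd4 and 1 in Thy1. Of 4 measured genes of dividing cells, 3 were lower in Hb9 and 4 in Drd4 than in Thy1, and of 5 immediate-early genes 4 were lower in each line. Among 8 markers of Muller glia and progenitor cells, both lines had less Apoe and Vim than Thy1, and Drd4 had more Dkk3. Of 4 horizontal cell markers, 1 was lower in Hb9 and 3 in Drd4, and of 3 measured astrocyte markers 1 was lower in Drd4. The lists for endothelium, amacrine, starburst amacrine, bipolar, rod and cone cells had 0 calls against Thy1. The part of these cells and states in the Kcnk6 and Kcne4 differences, or in those of any other gene lower or higher than in Thy1, was not tested. Kcnk13, a K2P gene known from microglia, was lower in both lines without passing (-0.43 in Hb9 and -0.36 in Drd4). It was named after its values were seen, and nothing about a microglial share is read from it.

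Kcnk6 and Kcne4 also depended on single arrays. Kcnk6 in Hb9 was lost without Hb9 replicate 1 (adjusted p = 0.159) or Thy1 replicate 1 (0.153), over a range of 0.00804 to 0.159. In Drd4 it was lost without Drd4 replicate 2 (adjusted p = 0.139) or Thy1 replicate 1 (0.229), with quantile normalisation (0.0519) and with probe sets averaged per gene (0.0553), over a range of 0.00899 to 0.229. Kcnk6 was -0.77 in Hb9 and -0.64 in Drd4 without Thy1 replicate 1. Kcne4 in Hb9 was lost without Hb9 replicate 1 (adjusted p = 0.0797), Hb9 replicate 2 (0.0829) or Thy1 replicate 2 (0.0504), over a range of 0.00888 to 0.0829, and in Drd4 without Thy1 replicate 2 (0.0556, over a range of 0.00532 to 0.0556).

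Of 8 genes in the calcium-activated group, Kcnma1 and Kcnn1 passed between the lines, and 5 were called in 0 comparisons. Kcnma1 encodes the BK channel, which shortens spikes. It read 7.08 and 7.07 in Hb9 cells, 7.83 and 7.91 in Drd4 cells, and 7.17 and 7.03 in Thy1 cells. The Drd4 arrays lay above all others, with 0.77 ± 0.15 for Drd4 minus Thy1 (adjusted p = 0.0123) and -0.79 ± 0.15 for Hb9 minus Drd4 (adjusted p = 0.0122). All 4 other probe sets had the same direction in both comparisons, from 0.37 to 1.45 for Drd4 minus Thy1, and 1 of them passed in each. Kcnn1 (SK1), of the channels behind the afterhyperpolarisation that follows spikes, read 7.49 and 7.47 in Hb9, 6.38 and 6.68 in Drd4, and 6.86 and 7.64 in Thy1. It was higher in Hb9 than in Drd4 by 0.95 ± 0.23 (adjusted p = 0.0426), while the Thy1 arrays spread widely. Kcnn2 (SK2) averaged 6.76 ± 0.14 in Hb9, 7.09 ± 0.08 in Drd4 and 6.50 ± 0.01 in Thy1 and missed the threshold for Drd4 minus Thy1 (0.58 ± 0.15, adjusted p = 0.0537), although it passed in 5 of 14 alternatives (range 0.0277 to 0.226).

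Kcnt2 encodes Slick, a sodium-activated channel. It read 5.92 and 5.67 in Hb9, 5.45 and 5.15 in Drd4, and 4.60 and 4.89 in Thy1. The Thy1 arrays lay at background, and Kcnt2 was at least 1.58-fold higher in Hb9 (adjusted p = 0.00615). For Kcnt2 the call ended without Hb9 replicate 1 (adjusted p = 0.0513) or Thy1 replicate 1 (0.057), over a range of 0.00134 to 0.057. Kcnma1 against Thy1 was lost without Drd4 replicate 2 (adjusted p = 0.0697) or Thy1 replicate 2 (0.0784) and with probe sets averaged per gene (0.0881), over a range of 0.00745 to 0.0881. Between the lines it was lost without either Hb9 replicate (0.0972 and 0.0847) and with probe sets averaged per gene (0.139), over a range of 0.00765 to 0.139. Kcnn1 was lost without either Hb9 replicate (adjusted p = 0.184 and 0.144) or Drd4 replicate 1 (0.172), with quantile normalisation (0.0539) and with probe sets averaged per gene (0.0626), over a range of 0.00954 to 0.184.

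Of 14 Kir genes only Kcnj3 passed, in 1 comparison. Kcnj3 encodes GIRK1, a subunit of the channel that G protein-coupled receptors open. It read 6.13 and 6.47 in Hb9 cells, 7.95 and 7.43 in Drd4 cells, and 7.08 and 6.51 in Thy1 cells. The Hb9 arrays were lowest and the Drd4 arrays highest, and Hb9 minus Drd4 was -1.39 ± 0.24 (2.63-fold lower, adjusted p = 0.00737). Against Thy1 the differences of -0.50 ± 0.24 in Hb9 and 0.90 ± 0.24 in Drd4 did not pass (adjusted p = 0.245 and 0.0615). Without Hb9 replicate 1 the call ended (adjusted p = 0.0658, over a range of 0.00257 to 0.0658), and the 3 other probe sets, of which 0 lay above background on more than 1 array, gave -0.48 to -0.19. The GIRK genes Kcnj5, Kcnj6 and Kcnj9 did not pass in any comparison. Kcnj10, the Kir4.1 gene of Muller glia, lay at background in all groups, with a mean log2 intensity of 4.74 for Hb9, 4.65 for Drd4 and 4.67 for Thy1.

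Among the cytoplasmic subunits of Kv1 channels, 1 of 3 differed between the lines. Kcnab2 (Kv-beta-2) read 8.20 and 7.55 in Hb9 cells, 6.62 and 6.48 in Drd4 cells, and 7.25 and 7.51 in Thy1 cells. Drd4 was lowest without overlap, and Hb9 minus Drd4 was 1.33 ± 0.21 (2.51-fold, adjusted p = 0.00559). Drd4 minus Thy1 was -0.83 ± 0.21 (adjusted p = 0.0542), just short of the threshold, and passed in 4 of 14 alternatives (range 0.0211 to 0.257). The call between the lines was lost with probe sets averaged per gene (adjusted p = 0.055, over a range of 0.00253 to 0.055), where the second probe set, dim on most arrays, entered with 0.08. Kcnab1 and Kcnab3 did not pass in any comparison.

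Most of the family gave no call. In all, 61 members were called in 0 comparisons, with differences from -0.67 to 0.59 over the 3 comparisons, and 34 of them lay above background on all 6 arrays. These counts rest on the brightest probe set of each gene, and a dimmer probe set passed for Kcnc1, Kcnip3 and Kcns2. For Kcns2 it gave -0.66 for Hb9 minus Drd4 (adjusted p = 0.0177 in a limma fit over all probe sets), where the brightest gave 0.19. This dimmer Kcns2 probe set lay above background on 4 arrays, with its lowest values in Hb9 (4.99 and 4.81). Of the 79 members, 46 (58.2%) lay above background on all 6 arrays, beside 65% of all genes, and 22 on some. The other 11 lay at or below it on every array, namely Kcna3, Kcnh5, Kcns1, Kcnv2, Kcnj2, Kcnj10, Kcnj14, Kcnj15, Kcne1, Kcne2 and Kcne3. A difference in them could not be measured above background on these arrays. Only Kcnh5 among them was called, and its calls rest on values at background. By subfamily, 19 of 31 Kv, 5 of 14 Kir, 8 of 12 K2P, 6 of 8 calcium-activated and 8 of 14 auxiliary genes lay above background throughout. Over the members, replicate arrays differed by a median of 0.13 for Hb9, 0.19 for Drd4 and 0.16 for Thy1, beside a median standard error of a difference of 0.15.

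Partner genes that work with potassium channels under other symbols were measured too. Of 23 such genes, 2 rose and 1 fell in Hb9 against Thy1, 1 rose and 1 fell in Drd4 against Thy1, and 1 was higher and 0 lower in Hb9 than in Drd4. In either direction these are 13%, 8.70% and 4.35% of the partners, beside 6.71%, 5.47% and 6.12% of all genes. Cntnap2 (Caspr2), which clusters Kv1 channels on axons, read 10.52 and 10.35 in Hb9, 9.78 and 9.55 in Drd4, and 9.89 and 9.90 in Thy1. The Hb9 arrays were highest, with 0.77 ± 0.14 for Hb9 minus Drd4 (adjusted p = 0.00964) and 0.54 ± 0.14 for Hb9 minus Thy1 (adjusted p = 0.0452). Dlg2 (PSD-93), a scaffold that binds Kv1 channels, was higher in Hb9 than in Thy1 by 0.63 ± 0.14 (adjusted p = 0.0254). Dpp6, a transmembrane partner of Kv4, rose in Drd4 against Thy1 by 0.71 ± 0.18 (adjusted p = 0.0444), whereas Dpp10, its relative, did not pass (-0.39 in both lines).

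Abcc9, the sulfonylurea receptor that pairs with Kcnj8 and a pericyte marker above, was lower in Hb9 (-2.84 ± 0.52, adjusted p = 0.0126) and in Drd4 (-4.55 ± 0.52, adjusted p = 0.000612) than in Thy1. Its arrays read 7.31 and 7.43 in Hb9, 6.77 and 4.54 in Drd4, the lower of them below background, and 10.15 and 10.27 in Thy1. Both calls were lost with robust moderation (adjusted p = 0.125 and 0.0565). In Hb9 the Abcc9 difference also missed the threshold without Hb9 replicate 1 (0.0663) or Thy1 replicate 1 (0.0681), and its ranges were 2.47e-06 to 0.125 in Hb9 and 2.29e-08 to 0.0565 in Drd4. Cntnap2 against Thy1 was lost in 8 of 14 alternatives. It was lost without Hb9 replicate 1 (0.32 after adjustment), Hb9 replicate 2 (0.124), Thy1 replicate 1 (0.189) or Thy1 replicate 2 (0.0884) and with the replicate number as a block (0.0644), over a range of 0.0341 to 0.32. Between the lines it was lost without Hb9 replicate 1 (0.121, over a range of 0.00731 to 0.121). Dlg2 was lost without Hb9 replicate 1 (0.116), Hb9 replicate 2 (0.155), Thy1 replicate 1 (0.113) or Thy1 replicate 2 (0.0583) and with probe sets averaged per gene (0.193, difference 0.30), over a range of 0.0128 to 0.193. Dpp6 was lost in 7 of 14 alternatives, among them without either Hb9 replicate (0.072 and 0.0718), either Drd4 replicate (0.101 and 0.17) or Thy1 replicate 1 (0.261) and with the block (0.0618), over a range of 0.0228 to 0.261.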

How the data were processed

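Total RNA of sorted retinal cells was amplified in 2 rounds and biotin labelled for Affymetrix arrays, per the labels' protocols. The deposited values are linear intensities, 1 for each probe set. The authors' steps from scan to deposited intensity are not stated in the labels. Of 45101 probe sets, 34945 map to 1 gene, and 0 values lay at or below 0. Log2 was taken with no floor, and the probe set with the highest mean over 6 arrays stood for each gene. All 79 members matched the RefSeq table by Entrez identifier with 0 changed symbols.

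A mean per group was fitted to all 6 arrays in limma 3.58.1 (R 4.3.3) with an intensity trend, 3 residual and 6.98 prior degrees of freedom. Tests were two-sided, with Benjamini-Hochberg adjustment over 18193 genes at 0.05. The procedure was tested on simulated data, and no error rate for these arrays is drawn from that test. Precision is limited by the number of arrays: with 2 against 2, no exact permutation test reaches below 0.333. Replicate correlations across genes were 0.988 to 0.992.

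Named genes are the members called in any comparison, 16 fixed genes of ganglion cell physiology where measured, members with an uncalled difference of at least 1 (0 genes), and partner genes past the threshold. Single members named for their family or background stand outside this rule and were chosen after their values were seen. Members and lists were chosen with earlier results of these data known. Alternatives were quantile normalisation, median centring, the mean of all probe sets, dim genes left out, no trend, robust moderation, an offset of 16 before log2, the replicate number as a block, and each array left out in turn.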

Additional observations from a re-analysis of the deposited data

Results flagged for a closer look

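The difference from Thy1 was itself different between the lines for 13 members, by the direct test of Hb9 against Drd4 in limma. As Hb9 minus Drd4 on the log2 scale, these were Kcna5 (-2.99), Kcnd2 (2.22), Kcnip4 (1.60), Kcnk2 (1.45), Kcnj3 (-1.39), Kcnab2 (1.33), Kcna1 (1.23), Kcnk1 (1.23), Kcnn1 (0.95), Kcnq3 (-0.82), Kcnd3 (-0.80), Kcnma1 (-0.79) and Kcnh5 (0.64). Kcna5 lay at background in Hb9, so its value stands for a bound of at least 3.59-fold lower. Kcnh5 lay at background in all groups, so the size of its difference is not a measured one, which leaves 12 members measured above background in at least 1 of the lines. The Kcnd2 difference was 0.07 on 1 of the other probe sets above background and 0.80 on the other, and that of Kcnip4 was 0.17 and 0.95 on its other probe sets. With 2 arrays a group, outlying arrays were not tested for.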

How the results depend on the processing

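Of 29 member calls, 12 held under every alternative that tested them, namely both calls each of Kcna5, Kcnd2, Kcnip4, Kcnk1 and Kcnk2, and Kcnq3 and Kcnh5 for Drd4 against Thy1. Of these genes, Kcnh5 lay at background in all groups. The other 17 calls were lost under at least 1 alternative, and 0 reversed. Kcnd2 in Hb9 against Thy1, which was not called, changed sign without Hb9 replicate 1, with values from -0.363 to 0.0506 when 1 array was left out. The cause of the changes below was not tested. For Hb9 against Thy1 (2 higher and 2 lower), quantile normalisation gave 1 higher, and the mean of all probe sets 1 higher and 4 lower. With 1 array left out the counts ran from 0 to 2 higher and 0 to 2 lower, and the median from -0.02 to 0.06. For Drd4 against Thy1 (5 and 7) they ran from 3 to 5 and from 6 to 8, and the median from -0.0521 to 0.0627. For Hb9 against Drd4 (8 and 5), the mean of all probe sets gave 5 higher, and with 1 array left out the counts ran from 6 to 9 and from 1 to 5, and the median from 0.02 to 0.04.

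Partner genes in Hb9 against Thy1 numbered 1 higher with quantile normalisation, no trend or the replicate block, 0 higher with the mean of all probe sets and 0 lower with robust moderation. In Drd4 against Thy1 they numbered 0 higher and 2 lower with the mean of all probe sets and with the replicate block, and 0 lower with robust moderation. In Hb9 against Drd4 there were 2 higher with the replicate block. With 1 array left out, the ranges were 0 to 2 higher and 0 to 1 lower, 0 to 1 and 1 to 2, and 0 to 3 and 0 to 1, in the same order.

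The labels do not say that replicate numbers mark a shared litter. Deviations of same-numbered arrays correlated at -0.28 for Hb9 and Drd4, -0.19 for Hb9 and Thy1 and 0.37 for Drd4 and Thy1. With the replicate block, 4 members were called for Hb9 against Thy1, 13 for Drd4 against Thy1 and 13 for Hb9 against Drd4, beside 4, 12 and 13 without it. Leaving out dim genes kept 62 members in the fit, without Kcnh5. Where 1 array was left out, the remaining array of that group was assumed to vary like the others. A group with both arrays at background gives bounds only, and a fold against a group with 1 such array (Kcnip4, Kcnk2 and Abcc9 in Drd4, Kcnk6 in Hb9) rests partly on a value below background.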
